A study of Oryza sativa with 10 samples.

Results

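The long arm of rice chromosome 11 was examined through the peaks of 2 histone marks, H3K27me3 and H3K36me3, in leaf chromatin. A peak was a member when its midpoint lay on chromosome 11 between 14 Mb and 27482042, which is 1 Mb before the end of the last peak of the chromosome at 28482042. This gave 2941 member peaks, 1793 of H3K27me3 and 1148 of H3K36me3, out of 93054 peaks on all 12 chromosomes. The peaks came from 10 ChIP-seq libraries of indica rice, 1 for each mark in 2 F1 hybrids and their 3 inbred parents. The hybrids were GL×93-11 and GL×TQ. The parents were Guangluai-4, called GL and a parent of both hybrids, and 93-11 (also Yangdao-6), with Teqing (TQ) as the third. The second fully expanded leaves of 3 plots were pooled, so no genotype has a replicate, no test was possible, and a difference between libraries carries no replicate error. Intervals are 95% Wilson intervals for shares and 95% exact Poisson intervals for counts, and both cover counting error only. The reads were mapped to Nipponbare, a japonica variety. Where a library has no peak, absence of the mark, a signal under the calling threshold and sequence that did not map cannot be told apart. The members nearest to the borders were a GL×93-11 H3K27me3 peak at chr11:14027124-14029858 (635 tags, the reads counted in the peak) and a 93-11 H3K27me3 peak at chr11:27398884-27399801 (144 tags). Just outside lay a GL H3K27me3 peak at chr11:13933975-13935117 (148 tags) and a GL×TQ H3K27me3 peak at chr11:27507663-27509162 (200 tags).

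H3K27me3 is set by Polycomb complexes over genes that are kept silent, often regulators of development that are off in the tissue examined. H3K36me3 is set behind elongating RNA polymerase II and lies over the bodies of transcribed genes. Rice chromosome 11 is known for clusters of NBS-LRR disease resistance genes, many of them on the long arm, which vary in copy number and sequence among varieties. An F1 hybrid carries 1 genome of each of its parents, so a mark found in 1 parent can be followed in its hybrid. Genes were not placed on the peaks, since an annotation matching their coordinates was not used here.

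H3K27me3 peaks lay somewhat more densely on the arm than elsewhere, whereas H3K36me3 was sparse. H3K27me3 gave 332 peaks in GL×93-11 (interval 297 to 370), 344 in GL×TQ, 371 in GL, 400 in 93-11 (362 to 441) and 346 in TQ. These are 24.6 to 29.7 peaks per Mb of the arm, against 22.4 to 25.9 per Mb on the other 11 chromosomes, and the arm was the higher in 5 of 5 libraries. The H3K27me3 peaks were short, with a median length of 1687 to 1827 bp on the arm, against 1862 to 1900 bp on the other chromosomes, and covered 4.80% to 5.72% of the arm, against 4.51% to 5.28% of the other chromosomes. On the rest of chromosome 11 they covered 4.86% to 5.31%, and the arm lay below it in 3 of 5 libraries. Chromosome 1 was close to the arm, with 23.7 to 27.8 H3K27me3 peaks per Mb and a cover of 4.91% to 5.71%. H3K36me3 gave 245 peaks in GL×93-11 (215 to 278), 226 in GL×TQ, 230 in GL, 220 in 93-11 (192 to 251) and 227 in TQ. That is 16.3 to 18.2 peaks per Mb on the arm, against 26.1 to 27.9 on the other chromosomes and 20.9 to 21.9 on the rest of chromosome 11. H3K36me3 covered 3.68% to 4.19% of the arm, against 6.56% to 6.93% of the other chromosomes, a ratio of 0.555 to 0.609 that was below 1 in 5 of 5 libraries. The H3K36me3 peaks that were found were not weak by fold enrichment, with a median of 2.98 to 3.09 on the arm, against 2.86 to 2.97 on the other chromosomes. They were shorter in 5 of 5 libraries, with a median length of 2197 to 2360 bp, against 2580 to 2657 bp on the other chromosomes. The libraries held 36356272 to 43755981 unique mapped reads for H3K27me3 and 37305130 to 49819855 for H3K36me3.

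Along the arm the cover of each mark changed several-fold between some neighbouring windows of 500 kb and less between others. The 5 genotypes had similar profiles with exceptions in single windows. All 27 windows, the last of them 482042 bp long, held a peak in each of the 10 libraries. H3K27me3 covered more of the window than H3K36me3 in all 5 genotypes in 12 windows, H3K36me3 covered more in all 5 in 4 windows, and the genotypes were mixed in 11. H3K27me3 cover was highest at chr11:19000001-19500000, where 26 to 28 peaks per library covered 9.96% to 11.3% of the window, with a median of 11.2%. H3K36me3 covered a median of 1.62% of the same window. The next were chr11:24000001-24500000, with a median H3K27me3 cover of 10.5%, and chr11:20500001-21000000, with 6.77%. H3K27me3 was nearly missing at chr11:21000001-21500000, where it covered 0.251% to 1.64% and where H3K36me3 covered a median of 5.87%. That window held no H3K27me3 region of all parents. H3K27me3 cover was also low at chr11:14500001-15000000 (median 2.88%) and chr11:26500001-27000000 (3.36%).

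H3K36me3 cover was highest at chr11:22500001-23000000, with a median of 9.14% and a wide range of 5.67% to 10.3%. It reached a median of 8.42% at chr11:19500001-20000000, directly beside the H3K27me3 maximum, and 6.95% at chr11:21500001-22000000. The poorest window was chr11:17500001-18000000, where 1 to 3 H3K36me3 peaks per library covered 0.176% to 0.748% and no H3K36me3 region was of all parents. The first window of the arm (median 1.13%) and chr11:17000001-17500000 (1.52%) were the next poorest. Over the 26 full windows, the cover of a mark in 2 genotypes was correlated with Spearman rho of 0.64 to 0.88 for H3K27me3 and 0.87 to 0.94 for H3K36me3 over 10 pairs of genotypes, in windows that share sequence and mappability. The median covers of the 2 marks had rho = -0.31 and Pearson r = -0.30, a relation whose sign turned to rho = 0.18 when the windows were moved by 250 kb. H3K36me3 cover had rho = 0.38 and r = 0.34 with position along the arm, and H3K27me3 cover had rho = -0.01 and r = 0.02.

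**Figure D1:**
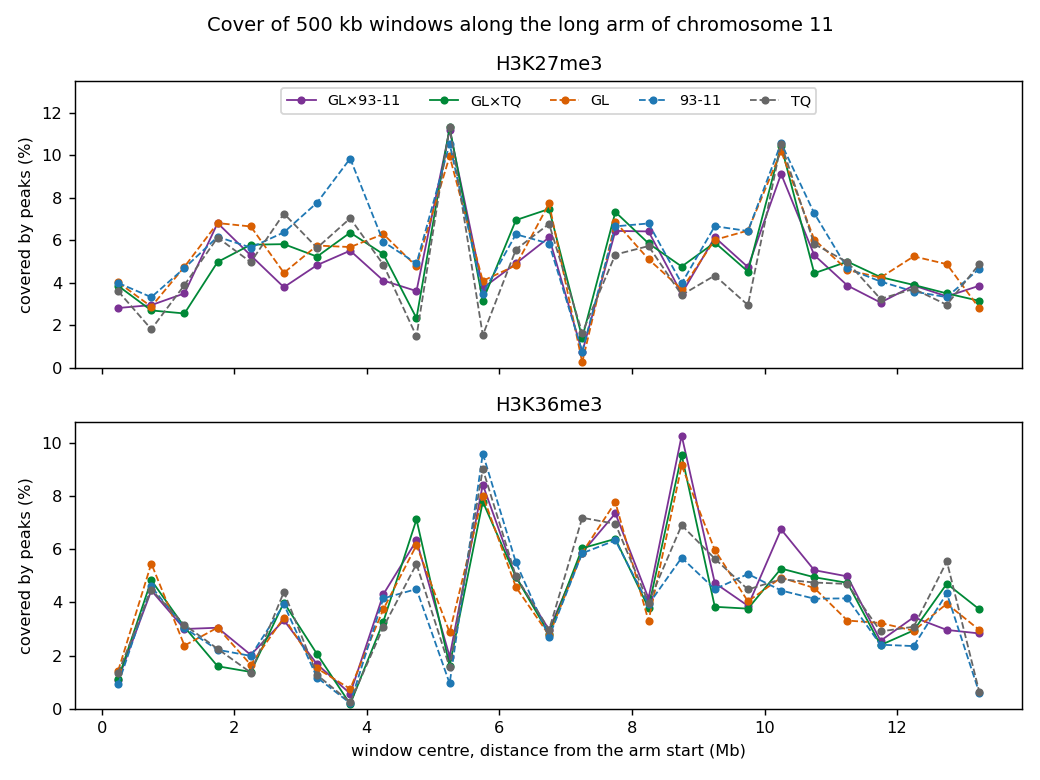
Percent of each 500 kb window covered by peaks (y) against the distance of the window centre from the start of the arm in Mb (x), for H3K27me3 (top) and H3K36me3 (bottom), with solid lines for the 2 hybrids and dashed lines for the 3 parents. Departures of single genotypes include the 9.85% of 93-11 in H3K27me3 in the window that starts 3.5 Mb into the arm, and the last window, where H3K36me3 covers 2.83% to 3.73% in the hybrids and GL and 0.585% in 93-11 and 0.620% in TQ.

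A smaller share of regions on the arm than on the other chromosomes was shared by the 3 parents, for both marks. Overlapping peaks of the parents were merged into 591 H3K27me3 regions, of which 182 had a peak of all parents (30.8%, interval 27.2% to 34.6%), against 40.7% over all chromosomes and 34.6% to 46.4% by chromosome on the other 11. A further 157 regions belonged to 2 parents (26.6%, all chromosomes 24.2%). The remaining 252 belonged to 1 parent (42.6%, 38.7% to 46.7%), against 35.1% over all chromosomes and 30.8% to 39.2% by chromosome on the other 11. H3K36me3 formed 317 regions, of which 142 were of all parents (44.8%, 39.4% to 50.3%), against 55.9% over all chromosomes and 52.7% to 60.1% by chromosome on the other 11. Of the H3K36me3 regions, 76 belonged to 2 parents (24.0%, all chromosomes 19.8%) and 99 to 1 parent (31.2%, 26.4% to 36.5%), against 24.3% over all chromosomes. The arm thus lay outside the range of the other chromosomes in the all-parent and 1-parent classes of both marks, by an amount that has no test. That range is over whole chromosomes, with 11981 H3K27me3 and 11884 H3K36me3 regions in all, so their shares scatter less than those of the arm. The rest of chromosome 11 was not compared by class, so these shares may not be particular to the arm.

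For H3K27me3 the regions of 93-11, alone or with TQ, were the classes whose share lay above the range of the other chromosomes. The 102 regions of 93-11 only made up 17.3% (14.4% to 20.5%), against 13.3% over all chromosomes and at most 14.7% on another chromosome. The 70 regions of 93-11 and TQ without GL made up 11.8% (9.48% to 14.7%), against 7.61% over all chromosomes and at most 9.16% on another chromosome. The remaining classes lay within the range of the other chromosomes, with 101 regions of GL only (17.1%, all chromosomes 15.9%), 49 of TQ only (8.29%, all chromosomes 5.85%) and 43 of GL and 93-11 (7.28%, all chromosomes 7.08%), apart from the 44 of GL and TQ (7.45%, all chromosomes 9.55%), which lay below it. The TQ-only interval of 6.33% to 10.8% lay above the value of all chromosomes, while another chromosome reached 10.0%. Counted peak by peak, the share of a parent's H3K27me3 peaks in regions of its own was above all chromosomes for each parent. It was 27.2% in GL (all chromosomes 21.7%), 25.5% in 93-11 (19.3%) and 14.2% in TQ (9.16%). When every list was shortened to the same number of peaks, GL only fell to 13.4% and TQ only rose to 11.4%. The shares of 93-11 only (17.95%) and of 93-11 and TQ (13.2%) were kept. The range of the other chromosomes was not computed for the shortened lists.

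For H3K36me3 it was GL that stood by itself. The 56 regions of GL only made up 17.7% (13.9% to 22.2%), against 10.8% over all chromosomes and at most 14.4% on another chromosome, and the share was 17.5% when every list was shortened to the same number of peaks. The 44 regions that 93-11 and TQ had without GL made up 13.9% (10.5% to 18.1%), against 9.57% over all chromosomes and at most 11.2% on another chromosome. The other H3K36me3 classes lay near the whole set, with 25 regions of 93-11 only (7.89%, all chromosomes 7.65%), 18 of TQ only (5.68%, all chromosomes 5.79%), 23 of GL and TQ (7.26%, all chromosomes 6.62%) and 9 of GL and 93-11 (2.84%, all chromosomes 3.64%). The GL library held 47720307 reads for H3K36me3, against 37305130 in 93-11 and 49819855 in TQ, and the part of depth in these classes was not tested.

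**Figure D2:**
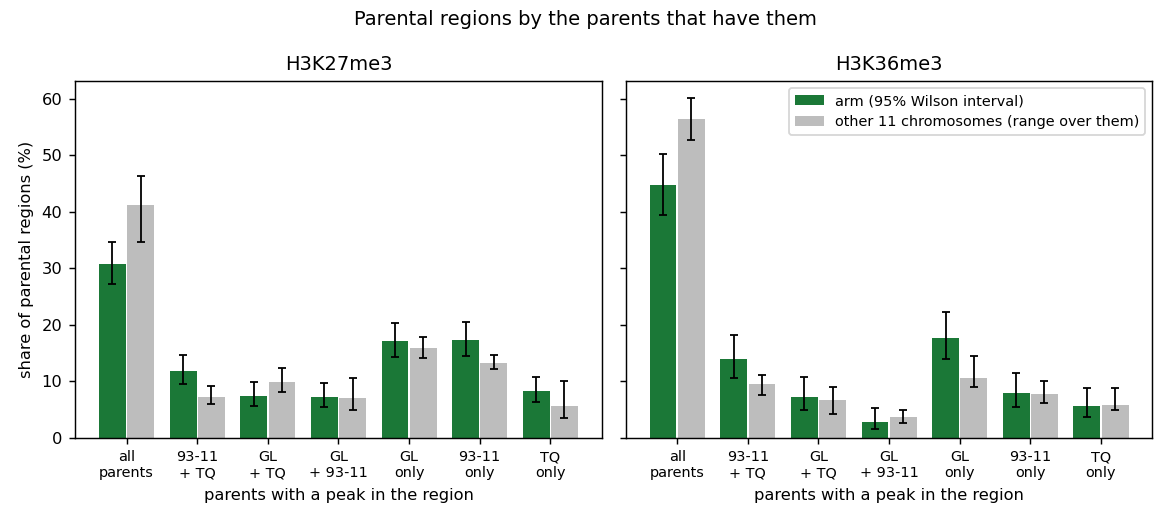
Share of parental regions in percent (y) by the parents that have a peak in them (x), on the arm (green bars, with 95% Wilson intervals) and on the other 11 chromosomes (grey bars, with the range over these chromosomes). Regions of all parents make up 30.8% (H3K27me3) and 44.8% (H3K36me3) on the arm, below every other chromosome, while GL-only H3K36me3 regions reach 17.7%.

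Regions of 1 parent were mostly weak and regions of all parents mostly strong, though each parent had strong regions of its own. The score is 10 times the negative log10 of the p-value of a peak, and the highest peak of a region was taken. A region of all parents needs a call in 3 lists and takes the highest of their peaks. A higher score than in regions of 1 parent is thus favoured by the class itself. Of the 182 shared H3K27me3 regions, 108 reached a score of 200, as did 13 of the 101 of GL only, 18 of the 102 of 93-11 only and 6 of the 49 of TQ only. Over all chromosomes 3060 of 5339 shared H3K27me3 regions reached it, 218 of 2092 of GL only, 171 of 1745 of 93-11 only and 81 of 768 of TQ only. Of the 142 shared H3K36me3 regions, 99 reached a score of 200, as did 16 of the 56 of GL only, 1 of the 25 of 93-11 only and 1 of the 18 of TQ only. Over all chromosomes 4526 of 7053 shared H3K36me3 regions reached it, 175 of 1368 of GL only, 74 of 966 of 93-11 only and 74 of 731 of TQ only.

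The most enriched regions of the arm were short and had a peak in every genotype by the rule that named them. The highest mean fold enrichment of H3K27me3 was at chr11:16901669-16902852, with 9.08 in GL×93-11, 8.90 in GL×TQ, 8.47 in GL, 9.03 in 93-11 and 7.89 in TQ. This place held 389 tags in GL×93-11, 371 in GL×TQ, 365 in GL, 383 in 93-11 and 282 in TQ. TQ was the lowest in both values, and its H3K27me3 library was also the smallest, with 36356272 reads. At chr11:25988499-25989905 the H3K27me3 fold was 7.78 in GL×93-11, 8.75 in GL×TQ, 9.30 in GL, 7.93 in 93-11 and 9.18 in TQ. At chr11:25443021-25444212 it ran from 8.02 to 8.70, with 305 to 364 tags. These folds lay far above the median of 3.89 of the H3K27me3 regions of all parents. The highest for H3K36me3 was chr11:16736725-16737732, with 203 tags in GL×93-11, 184 in GL×TQ, 236 in GL, 152 in 93-11 and 212 in TQ and folds of 5.84 to 6.83. The next H3K36me3 regions were chr11:19253829-19255253, with 240 to 418 tags, and chr11:26618679-26620036, with 234 to 373 tags. Among the named peaks, the fewest tags of 67 had a Poisson interval of 51.9 to 85.1, and the most of 1522 one of 1446 to 1600.

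Of the 3 strongest H3K27me3 regions of GL only, 2 were neighbours that were found in both hybrids. At chr11:26009791-26011727 there were 830 tags in GL×93-11 and 590 in GL, and no peak in GL×TQ, 93-11 or TQ. The score of this region was 100 in GL×93-11 and 730 in GL. At chr11:19830156-19832005 there were 255 tags in GL×93-11, 339 in GL×TQ and 502 in GL. The neighbouring chr11:19838047-19839518 had 215 tags in GL×93-11, 257 in GL×TQ and 405 in GL. Both places held fewer tags in the hybrids than in GL, which is favoured by their choice by the GL score. The lack of a peak in 93-11 or TQ follows from the class.

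The strongest H3K27me3 regions of 93-11 only were missing from GL×TQ, which has no 93-11 genome, and 2 of 3 were found in GL×93-11. At chr11:21712798-21715821 there were 977 tags in GL×93-11 and 1341 in 93-11. At chr11:17737103-17738049 there were 150 tags in GL×93-11 and 226 in 93-11. The third, chr11:17590303-17593489, had 1032 tags in 93-11 and no peak in any other genotype. For TQ only, chr11:19353925-19355445 had 198 tags in GL×TQ and 342 in TQ, and chr11:16619662-16621571 had 278 tags in GL×TQ and 374 in TQ. The 272 tags of TQ at chr11:19874445-19875866 had no counterpart in a hybrid. None of the 3 TQ regions had a peak in GL×93-11.

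The strongest H3K36me3 regions of GL only were found in both hybrids. At chr11:26908614-26909866 there were 183 tags in GL×93-11, 217 in GL×TQ and 389 in GL. At chr11:27252001-27253567 there were 265 tags in GL×93-11, 206 in GL×TQ and 410 in GL, and the nearest 93-11 peak lay 226032 bp away. At chr11:24809628-24812393 there were 470 tags in GL×93-11, 275 in GL×TQ and 874 in GL. GL had the most tags at each of the 3 places, which is favoured by their choice as the GL-only regions with the highest score. For 93-11 only, chr11:21265126-21267142 had 392 tags in GL×93-11 and 457 in 93-11. The next were chr11:20480338-20483387, with 228 tags in GL×93-11 and 603 in 93-11, and chr11:18028567-18031861, with 1021 in GL×93-11 and 866 in 93-11. None of the 3 had a peak in GL×TQ. For TQ only, chr11:15824254-15826325 (342 tags), chr11:16827865-16830142 (430 tags) and chr11:18160098-18161568 (240 tags) had no peak in either hybrid.

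The windows below were chosen after their values were seen, as places where the parents differed. Their many regions of 1 parent follow in part from that choice. At chr11:17500001-18000000, H3K27me3 gave 13 peaks in GL×93-11, 12 in GL×TQ, 11 in GL, 24 in 93-11 and 15 in TQ. Of its 34 H3K27me3 regions, 15 were of 93-11 only, and 3 of these had a peak in GL×93-11 and 0 in GL×TQ. Of the 7 that reached a score of 200, 2 had a peak in GL×93-11, beside 9 of 18 on the arm. Those missing from the hybrid included chr11:17580164-17583255 (877 tags in 93-11), chr11:17806110-17808638 (731 tags) and chr11:17535108-17537793 (632 tags), besides the region of 1032 tags named above. On the whole arm, 102 of 591 H3K27me3 regions were of 93-11 only (17.3%, all chromosomes 13.3%). Of these 102, 26 were found in GL×93-11 (25.5%, all chromosomes 27.6%) and 12 in GL×TQ (11.8%, all chromosomes 19.0%). The window is also the one poorest in H3K36me3.

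At chr11:22500001-23000000, H3K36me3 gave 20 peaks in GL×93-11, 17 in GL×TQ, 18 in GL, 11 in 93-11 and 13 in TQ. On the whole arm, GL only made up 17.7% of H3K36me3 regions (all chromosomes 10.8%). Of those, 44.6% were found in GL×93-11 (all chromosomes 44.6%) and 35.7% in GL×TQ (all chromosomes 22.6%). Of the 24 H3K36me3 regions of this window, 9 were of GL only, and 6 of the 9 had a peak in each hybrid. Their level, as tags per kb of peak per 1000000 unique mapped reads, was below GL in both hybrids. These regions were kept because GL alone of the parents had a peak, which favours GL as the highest. At chr11:22846007-22847734 the H3K36me3 level was 3.80 in GL×93-11, 3.26 in GL×TQ and 5.93 in GL. At chr11:22867126-22870054 it was 5.73 in GL×93-11, 5.96 in GL×TQ and 8.86 in GL. At chr11:22880159-22882773 it was 5.27 in GL×93-11, 5.08 in GL×TQ and 7.73 in GL. The same order of hybrids under GL held at chr11:22938636-22941394, with 5.60 in GL×93-11, 5.46 in GL×TQ and 8.24 in GL.

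In the last window, from 27000001 to the end of the arm, the marks parted GL from the other parents. H3K36me3 gave 6 peaks in GL×93-11, 7 in GL×TQ, 6 in GL, 1 in 93-11 and 1 in TQ. Of its 6 H3K36me3 regions, 5 were of GL only, and 2 of these were found in GL×93-11 and 3 in GL×TQ. Of the 17 H3K27me3 regions, 7 were of 93-11 and TQ without GL, and 3 of these were found in GL×93-11 and 2 in GL×TQ. On the whole arm these classes made up 17.7% of H3K36me3 regions (all chromosomes 10.8%) and 11.8% of H3K27me3 regions (all chromosomes 7.61%). In number of H3K27me3 peaks the parents differed less, with 8 in GL and 11 each in 93-11 and TQ. At chr11:27081507-27085170 there were 679 H3K27me3 tags in GL×93-11, 641 in GL×TQ, 1110 in 93-11 and 1000 in TQ. At chr11:27189404-27191576 there were 537 tags in 93-11 and 675 in TQ, and no peak in GL or in either hybrid.

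**Figure D3:**
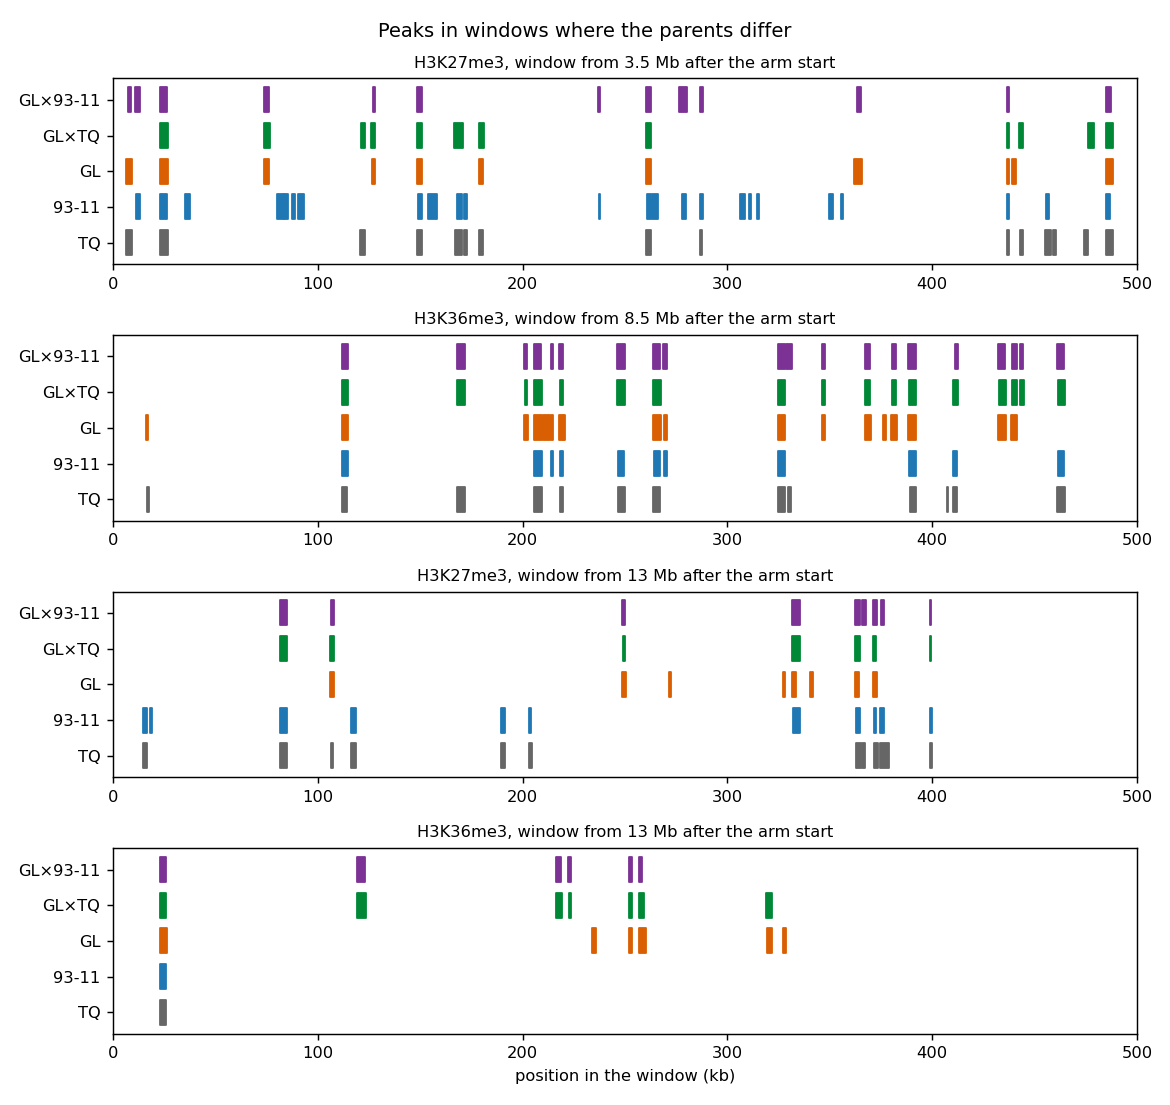
Peaks of the 5 genotypes (rows, hybrids above parents) by position in kb within the windows that start 3.5 Mb (H3K27me3), 8.5 Mb (H3K36me3) and 13 Mb (both marks) into the arm, each bar being 1 peak. The 93-11 row holds 24 H3K27me3 peaks in the first window, and in the last the H3K36me3 rows of 93-11 and TQ hold 1 peak each.

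Runs of neighbouring regions without a peak of 1 parent were not counted over all chromosomes, and the longest on the arm are given as a description. The longest for TQ spanned 108052 bp at chr11:27233918-27341969, with 10 regions in a row, 5 of each mark. GL had 5 H3K27me3 and 5 H3K36me3 peaks there and 93-11 had 1 H3K27me3 peak. GL×93-11 had 2 peaks of each mark in this run, and GL×TQ had 2 of H3K27me3 and 3 of H3K36me3. The longest for 93-11 spanned 56947 bp at chr11:22829452-22886398, with 6 regions, and 4 H3K36me3 peaks in GL×93-11, 3 in GL×TQ, 4 in GL and 1 in TQ. The longest for GL spanned 27961 bp at chr11:24977639-25005599, with 6 regions, and 2 H3K27me3 peaks in GL×93-11, 1 in GL×TQ and 4 each in 93-11 and TQ.

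Regions of all parents were found in the hybrids almost without exception, and regions of 1 parent in a minority. For H3K27me3, GL×93-11 had a peak in 170 of the 182 regions of all parents (93.4%, all chromosomes 94.7%) and GL×TQ in 175 (96.2%, all chromosomes 96.4%). For H3K36me3, GL×93-11 had 140 of 142 (98.6%, all chromosomes 96.7%) and GL×TQ 138 (97.2%, all chromosomes 96.9%). Of the 101 H3K27me3 regions of GL only, 25 were found in GL×93-11 (24.8%, all chromosomes 24.6%) and 23 in GL×TQ (22.8%, all chromosomes 21.8%). Of the 102 of 93-11 only, 26 were found in GL×93-11 (25.5%, all chromosomes 27.6%), and 12 in GL×TQ (11.8%, all chromosomes 19.0%), which is not a cross of 93-11. Of the 49 of TQ only, 21 were found in GL×TQ (42.9%, all chromosomes 41.3%) and 3 in GL×93-11 (6.12%, all chromosomes 10.7%). The shares in the hybrid of the parent lay near those of all chromosomes, and both shares in the other hybrid were lower, with intervals of 6.86% to 19.4% for 93-11 only and 2.10% to 16.5% for TQ only that hold the value of all chromosomes.

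H3K36me3 regions of GL only and 93-11 only were found in a larger share in GL×93-11 than those of H3K27me3. Of the 56 of GL only, 25 were found in GL×93-11 (44.6%, all chromosomes 44.6%) and 20 in GL×TQ (35.7%, interval 24.5% to 48.8%, all chromosomes 22.6%). Of the 25 of 93-11 only, 12 were found in GL×93-11 (48.0%, all chromosomes 42.2%) and 1 in GL×TQ (4%, all chromosomes 19.2%). Of the 18 of TQ only, 4 were found in GL×TQ (22.2%, all chromosomes 33.7%) and 4 in GL×93-11 (22.2%, all chromosomes 19.0%), so that TQ regions were as frequent in the hybrid without TQ. Taking both hybrids together, a private region was present in a hybrid of its parent in 95 of 353 cases for H3K27me3 (26.9%, all chromosomes 26.4%) and in 61 of 155 for H3K36me3 (39.4%, all chromosomes 35.5%). It was present in the hybrid of other parents in 15 of 151 cases for H3K27me3 (9.93%, 6.11% to 15.7%; all chromosomes 16.5%) and in 5 of 43 for H3K36me3 (11.6%, 5.07% to 24.5%; all chromosomes 19.1%).

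Regions of GL and 1 other parent were found in a larger share in the hybrid of those parents than in the other hybrid. Of the 43 H3K27me3 regions of GL and 93-11, 31 were found in GL×93-11 (72.1%, all chromosomes 71.2%) and 25 in GL×TQ (58.1%, all chromosomes 57.6%). Of the 44 of GL and TQ, 31 were found in GL×TQ (70.5%, all chromosomes 68.1%) and 21 in GL×93-11 (47.7%, all chromosomes 55.3%). The 70 of 93-11 and TQ, which each hybrid receives from 1 side, were found in 38 cases in GL×93-11 (54.3%, all chromosomes 58.4%) and in 38 in GL×TQ (54.3%, all chromosomes 65.1%). For H3K36me3, 8 of the 9 regions of GL and 93-11 were found in GL×93-11 (88.9%, all chromosomes 80.4%) and 2 in GL×TQ (22.2%, all chromosomes 60.2%). Of the 23 of GL and TQ, 20 were found in GL×TQ (87.0%, all chromosomes 75.8%) and 14 in GL×93-11 (60.9%, all chromosomes 70.8%). Of the 44 of 93-11 and TQ, 26 were found in GL×93-11 (59.1%, all chromosomes 64.0%) and 29 in GL×TQ (65.9%, all chromosomes 67.0%).

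Presence in the hybrid followed the strength of the region in the parent, on the arm as over all chromosomes. For H3K27me3 in GL×93-11, 21 of 123 private regions of its parents were found in the class under a score of 100 (17.1%, all chromosomes 16.2%), 14 of 49 with 100 to 200 (28.6%, all chromosomes 33.5%) and 16 of 31 at a score of at least 200 (51.6%, all chromosomes 63.2%). For H3K36me3 in GL×93-11 the same classes gave 8 of 36 (22.2%, all chromosomes 32.6%), 15 of 28 (53.6%, all chromosomes 52.5%) and 14 of 17 (82.4%, all chromosomes 79.9%). In GL×TQ, the class of 200 or more gave 10 of 19 for H3K27me3 (52.6%, all chromosomes 55.5%) and 12 of 17 for H3K36me3 (70.6%, all chromosomes 61.8%). Regions of all parents of that class were found in 107 of 108 cases in GL×93-11 (all chromosomes 99.0%) and 108 of 108 in GL×TQ (all chromosomes 99.2%) for H3K27me3.

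**Figure D4:**
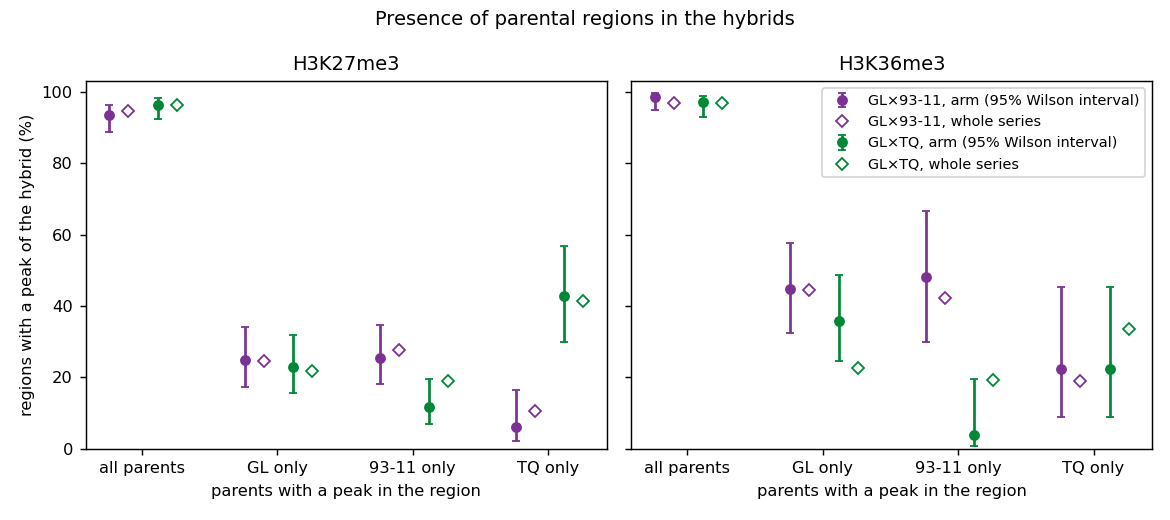
Percent of parental regions of the arm with a peak of the hybrid (y) by the parents that have them (x), with 95% Wilson intervals as bars around the filled points and the whole series as open diamonds. Regions of all parents lie between 93.4% and 98.6%, and regions of 1 parent at 48.0% or less.

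Few regions of all parents were missing from a hybrid. The strongest for H3K27me3 was chr11:18304832-18307909, with no peak in GL×93-11, 1104 tags in GL×TQ, 1306 in GL, 1021 in 93-11 and 901 in TQ. At chr11:15887401-15890519 there were 489 tags in GL×93-11, no peak in GL×TQ, 361 tags in GL, 316 in 93-11 and 427 in TQ. At chr11:26169294-26169922 neither hybrid had a peak, against 91 tags in GL, 67 in 93-11 and 70 in TQ. The last is a weak region, and 3 H3K27me3 regions of all parents were missing from both hybrids. For H3K36me3 0 were missing from both. The strongest H3K36me3 region missing from 1 hybrid was chr11:24385457-24388187, with 352 tags in GL×93-11, no peak in GL×TQ, 547 tags in GL, 162 in 93-11 and 426 in TQ. The next were chr11:16665344-16668090, missing from GL×TQ, and chr11:25984747-25986249, missing from GL×93-11.

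Where a hybrid had a private region of GL, its level was mostly below that of GL, on the arm as over all chromosomes. The other parents gave ratios on the arm that differed by mark. A private region is one where only that parent passed the peak threshold. Its parent is thus high by selection, which by itself favours ratios below 1. This comparison was added after the data were seen. For H3K36me3 regions of GL only, the level in GL×93-11 over that in GL had a median of 0.735 over 25 regions, 23 of them below 1, beside 0.955 in the 140 regions of all parents. GL×TQ over GL had a median of 0.676 over 20 regions, 19 of them below 1, beside 0.912 in the 138 regions of all parents. Over all chromosomes these GL-only medians were 0.918 (461 of 610 regions below 1) and 0.800 (281 of 309). For H3K27me3 regions of GL only, the median was 0.828 in GL×93-11 (25 regions, 21 below 1) and 0.821 in GL×TQ (23 regions, 22 below 1). The values of all chromosomes were close, with 0.835 (446 of 515 below 1) and 0.808 (416 of 456). Regions of all parents on the arm had 0.895 and 0.881. GL×TQ over TQ had a median of 0.841 over 21 H3K27me3 regions of TQ only, 19 of them below 1, beside 0.914. Over all chromosomes the TQ-only median was 0.857, with 288 of 317 below 1. GL×93-11 over 93-11 did not lie below 1 in H3K27me3 regions of 93-11 only, with 1.02 over 26 regions, beside 1.09. For H3K36me3 it was 0.919 over 12 regions, 10 of them below 1, beside 1.01. Over all chromosomes it was 0.954, with 289 of 408 below 1. GL×TQ over TQ was above 1 in the 4 H3K36me3 regions of TQ only, with 1.01 to 1.24, a median of 1.09 and 0 of 4 below 1, beside 1.01. Over all chromosomes this median was 0.965, with 159 of 246 below 1, so the 4 regions of the arm are few. A region can be compared only where the hybrid passed the threshold, which leaves out the lowest hybrid levels.

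**Figure D5:**
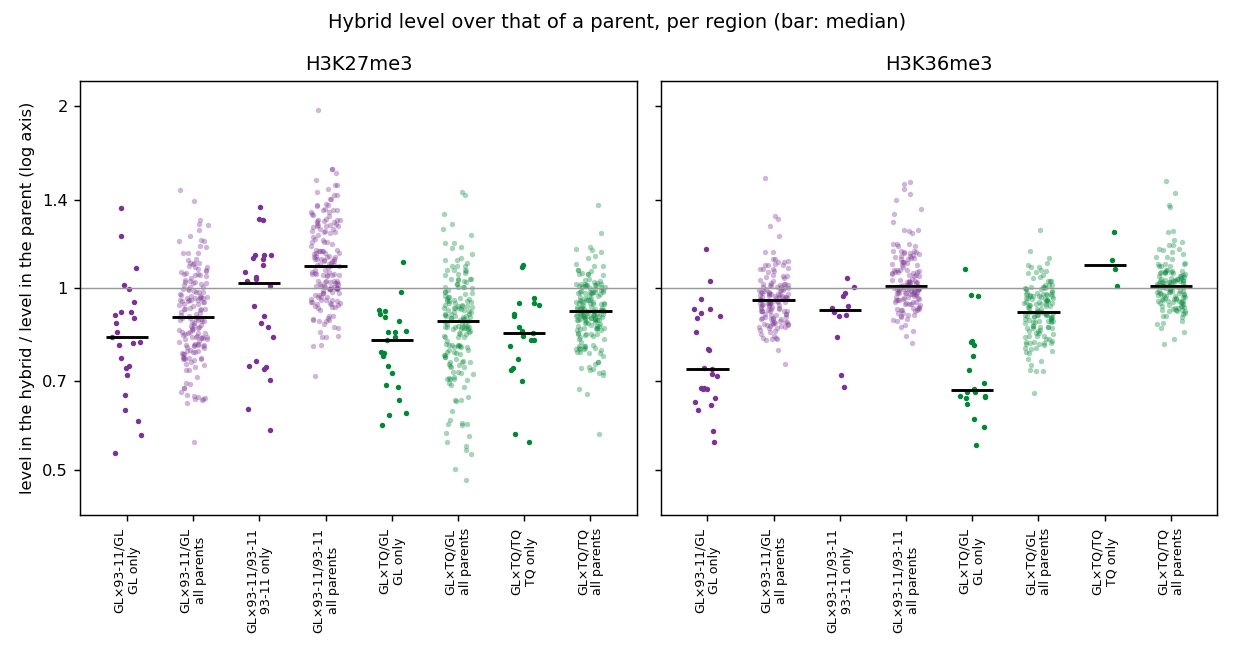
Level in the hybrid over level in a parent (y, log axis) for single regions (points), grouped by hybrid, parent and class of region (x), with the median as a bar. The lowest medians are those of GL-only H3K36me3 regions, 0.676 in GL×TQ and 0.735 in GL×93-11.

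Some hybrid peaks had no peak of their own parents. For H3K27me3 these were 20 of 332 in GL×93-11 (6.02%, all chromosomes 4.50%) and 31 of 344 in GL×TQ (9.01%, all chromosomes 7.46%). The share in GL×93-11 was 9.94% (7.17% to 13.6%) with lists of equal length, and that in GL×TQ 8.96%, so that the order of the hybrids depends on list length. For H3K36me3 they were 19 of 245 in GL×93-11 (7.76%, all chromosomes 5.29%) and 14 of 226 in GL×TQ (6.19%, all chromosomes 3.84%). With no peak of any of the 3 parents, there were 17 H3K27me3 peaks in GL×93-11 (5.12%, all chromosomes 3.49%), 19 in GL×TQ (5.52%, all chromosomes 3.56%), and for H3K36me3 15 in GL×93-11 (6.12%, all chromosomes 3.92%) and 13 in GL×TQ (5.75%, all chromosomes 1.90%). Of the H3K36me3 peaks without any parent, those at 8 places were found in both hybrids, and of H3K27me3 those at 3 places. The strongest was chr11:24176122-24179059, with 981 tags in GL×93-11 and 953 in GL×TQ, 2523 bp or more from a peak of a parent. At chr11:24445183-24448255 there were 600 tags in GL×93-11 and 630 in GL×TQ, and the GL×TQ peak lay 718 bp from a 93-11 peak. Of the 8 places, 3 lay in the last window, among them chr11:27119091-27122908 with 1032 tags in GL×93-11 and 1150 in GL×TQ. The median score of these peaks was 69.6 in GL×93-11 and 63.5 in GL×TQ for H3K27me3, beside 93.3 and 79.6 for H3K36me3. The H3K27me3 peak with the highest score was chr11:23859592-23861109, with 238 tags in GL×93-11, followed by chr11:22405291-22408273 with 621 and chr11:20203043-20205022 with 330. None of these overlapped a peak of GL×TQ, though the last lay 423 bp from one.

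Where all parents had a region, their levels rarely differed past 2-fold. For H3K27me3, 93-11 over GL passed this limit in 8 of 182 regions (4.40%, all chromosomes 3.02%), all 8 lower in 93-11. This count was 3 with tags in peaks as the library total and 1 with fold enrichment as the level. TQ over GL passed it in 0 (all chromosomes 0.693%), or in 2 under either of these alternatives, and 93-11 over TQ in 3 (1.65%, all chromosomes 0.843%), all lower in 93-11. The median ratio was 0.833 for 93-11 over GL, 0.960 for TQ over GL and 0.889 for 93-11 over TQ. For H3K36me3, 93-11 over GL passed it in 0 of 142 regions (all chromosomes 0.0709%), TQ over GL in 1 (0.704%, all chromosomes 0.0425%) and 93-11 over TQ in 0 (all chromosomes 0.0142%). The lowest H3K27me3 ratio was at chr11:20636521-20639142, with a level of 7.94 in GL×93-11, 10.3 in GL×TQ, 14.3 in GL, 4.03 in 93-11 and 11.0 in TQ. Here 93-11 was at 0.282 of GL and at 0.367 of TQ, while its fold enrichment of 6.30 was the highest of the 5, so that the order depends on the measure. At chr11:26921366-26923951 the level was 2.47 in 93-11 and 5.84 in GL, a ratio of 0.423. At chr11:17522703-17526736 it was 4.47 in 93-11 and 10.5 in TQ, a ratio of 0.427, again with the highest fold in 93-11. The H3K36me3 region past the limit was chr11:15539054-15540845, with a level of 3.31 in TQ and 6.82 in GL. The hybrid level over the mean of its parents was taken in regions of all parents with a hybrid peak, which leaves out private regions. It passed 2-fold in 0 of them for either mark, on the arm and over all chromosomes. For H3K27me3 the medians were 0.979 in GL×93-11 (all chromosomes 0.975) and 0.902 in GL×TQ (all chromosomes 0.890). For H3K36me3 they were 0.988 (all chromosomes 0.964) and 0.960 (all chromosomes 0.951).

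The 2 marks met in 1 genotype at a small share of peaks, mostly within counting error of the share of all chromosomes. The share was lower than that of all chromosomes over H3K27me3 peaks and higher over H3K36me3 peaks. Both shares rest on nearly the same overlaps, divided by different numbers of peaks. H3K27me3 peaks that overlapped an H3K36me3 peak of the same genotype numbered 19 in GL×93-11 (5.72%, all chromosomes 7.81%), 17 in GL×TQ (4.94%, all chromosomes 6.19%), 21 in GL (5.66%, all chromosomes 8.80%), 19 in 93-11 (4.75%, all chromosomes 5.98%) and 14 in TQ (4.05%, all chromosomes 6.69%). Of the H3K36me3 peaks, those that overlapped H3K27me3 were 7.76% in GL×93-11 (all chromosomes 6.45%), 7.96% in GL×TQ (5.63%), 9.57% in GL (8.71%), 8.64% in 93-11 (5.57%) and 6.17% in TQ (5.71%). For H3K27me3 peaks the interval held the value of all chromosomes in GL×93-11, GL×TQ and 93-11. It lay below that value in GL (3.732% to 8.498%) and, narrowly, in TQ (2.425% to 6.676%). For H3K36me3 peaks the interval held the value of all chromosomes in both hybrids, GL and TQ. It lay narrowly above that value in 93-11 (5.599% to 13.09%). The overlaps lay at 40 places, of which 20 were found in 1 genotype and 7 in all 5. One of the 7 was the second most enriched H3K27me3 region of the arm, at chr11:25988499-25989918. It held 487 H3K27me3 and 221 H3K36me3 tags in GL×93-11, 502 and 187 in GL×TQ, 519 and 223 in GL, 434 and 217 in 93-11, and 435 and 210 in TQ. At chr11:14610567-14612817 there were 432 to 580 H3K27me3 tags and 192 to 350 H3K36me3 tags. At chr11:24267287-24271198 there were 355 to 658 H3K27me3 tags and 282 to 475 H3K36me3 tags, with the H3K36me3 peaks starting before the H3K27me3 peaks in every genotype. Leaves hold several cell types, so both marks at 1 place do not show both on 1 chromosome.

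At a few places 1 parent had H3K27me3 and another H3K36me3, a comparison added after the data were seen. Of the H3K27me3 peaks of 93-11 without one in GL, 4 of 174 lay on an H3K36me3 peak of GL (2.30%, all chromosomes 1.89%), and of those without one in TQ, 3 of 146 lay on one of TQ (2.05%, all chromosomes 1.52%). For H3K27me3 in GL the counts were 0 against 93-11 (all chromosomes 1.19%) and 2 against TQ (1.38%, all chromosomes 1.52%), and for H3K27me3 in TQ they were 1 against GL (0.840%, all chromosomes 1.63%) and 0 against 93-11 (all chromosomes 1.42%). These 10 cases lay at 7 places and near the share of all chromosomes. At chr11:18851426-18853144, 93-11 had an H3K27me3 peak of 248 tags, while H3K36me3 held 431 tags in GL×93-11, 676 in GL×TQ, 719 in GL and 775 in TQ. Neither hybrid had H3K27me3 there. At chr11:20117303-20118370 there were 190 H3K27me3 tags in GL×93-11, 212 in GL×TQ, 123 in 93-11 and 281 in TQ. GL had an H3K36me3 peak there of 169 tags and a score of 79.8, and neither hybrid had one. At chr11:24095355-24098904 both hybrids had both marks, with 593 H3K27me3 and 261 H3K36me3 tags in GL×93-11 and 635 and 205 in GL×TQ. At chr11:21515888-21518246 GL×TQ had both marks (385 and 259 tags) and GL×93-11 had H3K27me3 alone. The hybrids thus followed no single pattern over the 7 places.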

How the data were processed

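H3K27me3 and H3K36me3 ChIP-seq was done on pooled leaves of 5 genotypes, 1 library per genotype and mark. The authors mapped the reads with SOAP2 to the Nipponbare sequence of Gramene and called peaks with MACS. The Gramene release was not given in the sources used here. Each deposited list gives tags per peak as raw counts, a score and a fold enrichment, which is a ratio to the local background. The heading of the deposited score column is lost in the lists, and it was read as -log10 of the p-value times 10. No input control is named for the calling. The total of unique mapped reads came from the supplement of the study.

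Peaks overlapping by 1 bp or more were merged over the parents into regions. Levels are tags per 1 kb of peak per 1000000 unique mapped reads, compared with a limit of 2-fold. With 1 library per group, no test was run. The 12 alternatives changed the score minimum, list length, overlap, borders, windows, total, limit and level. Named regions are, per mark: the 3 of all genotypes with the highest mean fold, the 3 private ones per parent and the 3 hybrid-only peaks with the highest score, the 3 strongest of all parents missing from a hybrid, the 2 largest ratios each way per pair of parents, the 3 windows with most and least cover, the longest runs, and the 3 places with both marks in most genotypes. The members and lists were chosen with earlier results of these data known. No sequence is shown, as no genome of this build was used. Python 3.11.15, pandas 2.3.3 and scipy 1.17.1 were used, and the region merging was tested on simulated data.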

Additional observations from a re-analysis of the deposited data

How the results depend on the processing

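Of 212 comparisons of a result with an alternative, 171 were kept, 40 moved and 1 turned its sign. Kept means within the counting interval or spread for shares and for ratios to the other chromosomes. For counts it means within a factor of 1.5, and for the correlation within a set margin. Some of the kept could not change, such as cover ratios with tags in peaks as the total. The Spearman correlation of the 2 marks over windows was -0.31 and became 0.18 with windows moved by 250 kb. Counting the peaks of each parent one by one in place of merged regions raised the share of all parents to 49.2% for H3K27me3 and 62.9% for H3K36me3, and gave shares of 1 parent of 22.6% and 14.6%, since a shared region then counts once per parent. With a score of 100 or more, the H3K27me3 share of 1 parent was 48.7%. With lists of equal length, presence in a hybrid of the parent was 32.03% for private H3K27me3 regions and 97.0% for those of all parents. With the arm from 16 Mb, the ratio of H3K36me3 cover was 0.621, against 0.596. The H3K27me3 regions past 2-fold in at least 1 pair of parents were 10, and became 6 with tags in peaks as the total, 53 with a limit of 1.5, 3 with fold as the level and 4 of 107 with a score of 100 or more. For H3K36me3 the 1 region became 0 with tags in peaks as the total, 10 with a limit of 1.5 and 0 with fold as the level. The causes of the other changes were not tested. No paired analysis was possible because the labels give no replicate numbers and each genotype has 1 library per mark, and for the same reason no replicate could be left out.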
